A study of Mus musculus with 92 samples.

Results

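The OAS family of the mouse was described here through 8 genes: Oas1a, Oas1b, Oas1c, Oas1g, Oas2, Oas3, Oasl1 and Oasl2. These genes were chosen by name, and they are 8 of the 29956 named genes in the deposited expression table. OAS proteins are interferon-induced sensors that bind double-stranded RNA and make short oligoadenylates, which act as signals in antiviral defence. ADAR1, encoded by Adar, edits adenosines in double-stranded RNA, and its loss is known to leave endogenous RNA that such sensors can bind.

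The members differ in what their proteins do. Oas1a and Oas1g encode active synthetases. Oas2 and Oas3 encode larger synthetases, of which OAS3 is the largest. Oasl2 encodes an active synthetase with ubiquitin-like domains. Oas1b is the flavivirus resistance gene and Oas1c its relative, and both proteins lack synthetase activity. Oasl1 encodes an inactive protein that represses translation of Irf7. Results are given in that order, active synthetases before inactive members.

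The table holds bulk RNA sequencing of total RNA from mouse macrophage-lineage cells, 92 libraries in 25 groups. The study asked how ER-Hoxb8 cells, progenitors made conditionally immortal by estradiol-dependent Hoxb8, compare with primary cells in culture and in the brain, and what loss of Adar does to them. All cells were FVB. From wild-type mice came bone marrow (BM) progenitors (n = 3), BM monocytes (n = 3), bone marrow-derived (BMD) macrophages kept 7 days in vitro (n = 3) and microglia from animals with no injection (n = 9). ER-Hoxb8 cells, heterozygous for Cas9, grew with beta-estradiol and GM-CSF and were differentiated in M-CSF. They were collected as progenitors at day 0 (n = 3), at day 4 (n = 3) and as macrophages at day 7 (n = 3). Microglia-like cells (MLCs) were BM cells (n = 6) or ER-Hoxb8 cells (n = 6, genotype labelled WT) injected into the brains of newborn Csf1r-/- pups and sorted back out. Because those hosts lack their own microglia, MLCs develop in a brain that differs from that of the microglia donors. The labels give no ages, and the authors describe those donors as matched to the hosts in age, with hosts injected at 0 to 5 days of age and collected 12 to 16 days later unless stated otherwise.

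The edited cells were Cas9 ER-Hoxb8 cells transduced with an sgRNA against Adar or with a non-targeting control (NTC) sgRNA. Adar sgRNA #1 gave progenitors (n = 3) and day 7 macrophages (n = 3), next to NTC progenitors (n = 3) and NTC macrophages (n = 3). Adar sgRNA #2 gave progenitors (n = 3) and macrophages (n = 5). In a further experiment, NTC and Adar1 KO macrophages (sgRNA #1) received baricitinib, a JAK inhibitor that blocks signalling from the interferon receptor, with each medium change for 7 days. Its doses were 0, 0.0006, 0.016, 0.4 and 10 µM, with n of 3, 3, 4, 4 and 3 for NTC and 3, 3, 3, 3 and 4 for Adar1 KO. The protocol text gives the third dose with the decimal point in another place, and the sample labels were followed here. The labels do not say whether edited replicates came from separate transductions, so replicates may share 1 edited population.

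Levels are the deposited log2 CPM. The table joins 6 sets of libraries normalized apart, recognised by their lowest value, which stands for a count of 0. That value is -4.34 in the BM and ER-Hoxb8 time course, -3.62 in the set of in vitro macrophages, MLCs and microglia, -3.43 for sgRNA #1, -3.56 for sgRNA #2 and -2.78 for baricitinib. Groups were compared only within a set. NTC macrophage replicate 2 has a lowest value of its own, -3.09, so it is described and left out of the 91 libraries compared. A difference (log2FC) is the first group's mean minus the second's, with its standard error. It is called changed when the limma p-value, adjusted over all genes tested in the set, is below 0.05. Library counts beside a p-value say how many libraries of the first group lay on that side of the second group's mean. The filter on low values reads CPM after the offset that stands for a count of 0 is subtracted, so a log2 CPM just above 0 can be below 1 CPM. All 8 members passed it in all 5 compared sets. Some passed through high groups alone. Oasl1 exceeded 1 CPM in the sgRNA #1 set only in the 3 Adar1 KO macrophage libraries, and in the baricitinib set only in 10 Adar1 KO libraries. In the baricitinib set, Oas1g, Oas2, Oas3 and Oasl2 did so in no 10 µM library, and Oas1b in no Adar1 KO library at 10 µM. Oas2 and Oasl2 also did so in no NTC library at 0.4 µM. Oas1b, Oas2, Oas3 and Oasl2 did so in the sgRNA #1 set only in macrophages. In the time course Oasl1 did so only in BM progenitors and monocytes, and Oas1g only in ER-Hoxb8 cells and 1 monocyte library. In the brain set Oas1c, Oas1g and Oas3 did so in no microglia library and Oasl1 in no ER-Hoxb8 macrophage library. Such members tend to differ between those groups by selection, so their call adds little there.

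The promoter windows of the members are shown because interferon acts through elements in such windows. RefSeq windows, 250 bases before to 50 after the gene start in build GRCm38.p6, were found for 6 of the 8 members, all on chromosome 5. The deposited data were aligned to GRCm39, and no coordinate of that build is used. Each window was searched on both strands for the core of the interferon-stimulated response element (ISRE), GAAANNGAAA. Capitals mark bases in an ISRE core. Oas1a (chr5:120907476-120907775), Oas1g (chr5:120887564-120887863), Oas3 (chr5:120777610-120777909) and Oas1c (chr5:120812465-120812764) lie on the minus strand and hold a core, and Oasl2 (chr5:114896684-114896983, plus strand) is shown because its RNA differed most between Adar1 KO and NTC macrophages.
Oas1a: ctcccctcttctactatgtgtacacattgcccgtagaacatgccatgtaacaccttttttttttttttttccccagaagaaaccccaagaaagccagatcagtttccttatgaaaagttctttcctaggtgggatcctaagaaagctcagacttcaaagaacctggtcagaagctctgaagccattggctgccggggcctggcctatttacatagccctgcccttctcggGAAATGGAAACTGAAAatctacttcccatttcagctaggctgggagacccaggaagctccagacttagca
Oas1g: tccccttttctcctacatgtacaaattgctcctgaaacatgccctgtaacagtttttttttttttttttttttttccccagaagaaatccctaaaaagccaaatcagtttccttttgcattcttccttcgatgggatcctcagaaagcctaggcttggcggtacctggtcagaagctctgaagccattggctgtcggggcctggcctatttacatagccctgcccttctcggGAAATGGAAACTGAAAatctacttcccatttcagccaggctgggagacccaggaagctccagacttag
Oas3: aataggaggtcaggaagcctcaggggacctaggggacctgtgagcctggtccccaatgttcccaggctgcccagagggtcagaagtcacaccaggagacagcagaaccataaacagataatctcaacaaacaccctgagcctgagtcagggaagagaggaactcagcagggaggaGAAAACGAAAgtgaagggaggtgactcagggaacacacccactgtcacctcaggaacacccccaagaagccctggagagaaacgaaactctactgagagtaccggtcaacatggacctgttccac
Oas1c: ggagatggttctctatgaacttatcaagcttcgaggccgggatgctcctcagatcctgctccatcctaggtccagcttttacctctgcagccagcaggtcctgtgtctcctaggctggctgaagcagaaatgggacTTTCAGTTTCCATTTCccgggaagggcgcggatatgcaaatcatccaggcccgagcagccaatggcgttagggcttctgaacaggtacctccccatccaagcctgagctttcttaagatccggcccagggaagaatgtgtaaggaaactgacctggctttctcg
Oasl2: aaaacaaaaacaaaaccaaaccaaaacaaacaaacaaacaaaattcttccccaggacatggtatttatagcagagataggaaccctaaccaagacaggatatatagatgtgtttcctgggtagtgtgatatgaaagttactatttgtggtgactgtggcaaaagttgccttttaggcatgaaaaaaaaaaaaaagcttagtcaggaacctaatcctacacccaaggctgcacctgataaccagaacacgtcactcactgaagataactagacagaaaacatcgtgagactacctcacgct

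The ISRE core was found in 4 of the 6 member windows, against 3.44% of the 32851 windows in the RefSeq table. Oas1a held overlapping cores at window bases 231 to 240 and 237 to 246. Oas1g held them at bases 233 to 242 and 239 to 248. In Oas3 a single core lay at bases 176 to 185. The Oas1c cores read on the opposite strand, at bases 137 to 146 and 143 to 152. These letters were not found in the windows of Oasl1 (chr5:114922990-114923289, plus strand) and Oasl2.

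Sequence shared between members limits how well reads can be assigned to 1 of them. Oas1a and Oas1g shared a run of 73 identical bases between their windows, while the longest run in the other 14 pairs of windows was 6 to 9 bases. In their transcripts, 68.7% of the 31-base words of Oas1a also occurred in Oas1g, and 54.6% of those of Oas1g in Oas1a. Here Oas1d, Oas1e, Oas1f and Oas1h were counted in the family too. Oas1c shared 20.7% of its words with the family, 11.8% with Oas1e, and Oas1b 3.2%. Oas2, Oas3 and Oasl2 shared none, and Oasl1 shared 0.112%, all with Oas1h. With genes outside the family Oas1c shared 8.09%, Oas1b 3.5%, Oas3 2.27%, Oasl2 1.23% and Oasl1 0.298%, and Oas1a, Oas1g and Oas2 none. Values of Oas1a and Oas1g are therefore not fully independent measurements.

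Several libraries stood apart from their group. ER-Hoxb8 day 0 replicate 2 correlated more closely with day 4 replicate 2 (r = 0.984 over 12056 genes) than with any day 0 library (r = 0.89). Its Csf1r level was 10.45, against 7.75 and 3.10 in the other day 0 libraries, and Kit was -0.76 against 5.03 and 1.67. Adar1 KO at 0.4 µM baricitinib, replicate 2, had Oas1a at 10.50, the highest Oas1a value of the baricitinib set, and Ifnb1 at 6.02 against -2.78 and -2.29 in replicates 1 and 3. Both libraries were also left out of the whole fit of their set, an alternative chosen after seeing the data, and results are given with and without them. Whether the first was labelled correctly or had begun to differentiate, and whether the second received its dose as labelled, is not known, so day 0 and 0.4 µM values hold only if the labels do.

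In the brain set, microglia replicates 8 and 9 carry another series name (YSWT) than replicates 1 to 7 (WT), and replicate 8 had the lowest Oas1a (-1.17), Oasl2 (-1.16) and Adar (0.87) of its group. Its summed markers of neurons (4.75), oligodendrocytes (9.30) and astrocytes (8.36), as log2 of the summed CPM of 4 genes each, were the highest among microglia. ER-Hoxb8 MLC replicate 6 was high in the monocyte genes Ly6c2 (11.12) and Ccr2 (11.78) and lowest of its group in P2ry12 (4.76) and Csf1r (6.08). Leaving out microglia replicate 8, microglia replicates 8 and 9 together or ER-Hoxb8 MLC replicate 6 changed no count of called members in comparisons with that group. BMD MLC replicate 3 was low in Oas1b (-0.20), Oas1c (-3.62), Oas1g (-1.88) and Oasl1 (-2.45), and it did change a count, given below.

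Cell labels were checked on marker genes. The summed macrophage markers (Csf1r, Cd68, Aif1, Emr1, Mertk and Trem2, with Cd68, Emr1 or Csf1r most abundant) were 7.51 to 8.45 in edited progenitors and 12.57 to 13.39 in edited macrophages outside the baricitinib experiment. In that experiment they were 11.78 to 12.82, with the lowest at 10 µM, and Cd68, Csf1r or, in 3 Adar1 KO libraries, Trem2 was most abundant. Microglia markers (P2ry12, Tmem119, Sall1 and Siglech, with P2ry12 or Tmem119 most abundant) summed to 14.61 to 14.98 in microglia, 10.24 to 11.80 in BMD MLCs and 5.58 to 11.49 in ER-Hoxb8 MLCs.

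RNA of the edited gene itself was not lower in Adar1 KO cells before baricitinib. Adar was 4.36, 4.23 and 4.24 in Adar1 KO progenitors (sgRNA #1) and 4.20, 3.42 and 4.28 in NTC progenitors. In macrophages it was 6.96, 7.15 and 7.01 with sgRNA #1, against 5.73 and 5.67 in the compared NTC libraries and 5.86 in NTC replicate 2. Adar RNA was thus higher in Adar1 KO macrophages (log2FC 1.34 ± 0.21, adjusted p = 0.000976, 3 of 3 libraries) and did not pass the test in progenitors (log2FC 0.31 ± 0.19, adjusted p = 0.924, 3 of 3 libraries). With sgRNA #2, Adar was 4.35, 4.56 and 4.36 in progenitors and 6.99 to 7.03 in 5 macrophage libraries. RNA level does not show whether the protein was lost.

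Adar was also read in the baricitinib set. In NTC it was 5.12, 4.94 and 4.69 at 0 µM and 3.70, 3.64 and 3.22 at 10 µM. In Adar1 KO it was 7.42, 6.52 and 6.37 at 0 µM and 1.55, 2.15, 2.91 and 2.03 at 10 µM. Only at 10 µM did every Adar1 KO library lie below every NTC library (log2FC -1.36 ± 0.45, adjusted p = 0.0146, 4 of 4 libraries).

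The first comparison asked what editing of Adar does in undifferentiated cells. Among progenitors, 1 OAS gene, Oas1g, was called between Adar1 KO (sgRNA #1) and NTC cells. Oas1g was 3.72, 3.85 and 3.71 in Adar1 KO and 3.10, 3.06 and 2.97 in NTC progenitors. The Adar1 KO libraries were all above the NTC libraries (log2FC 0.72 ± 0.15, adjusted p = 0.0493, 3 of 3 libraries). That made 1 of 8 members called, against 0.936% of all 11008 genes tested, and 3 members had an unadjusted p under 0.05. The call was lost without any single library of the 6, with adjusted p from 0.0948 without NTC replicate 1 to 0.22 without Adar1 KO replicate 2. Without Adar1 KO replicate 1 it was 0.127, without replicate 3 0.166, without NTC replicate 2 0.146 and without NTC replicate 3 0.163. With replicate number as a block it was 0.0603. Oas2 was -2.78, -2.69 and -2.58 in Adar1 KO and -1.56, -1.92 and -1.59 in NTC progenitors and did not pass (adjusted p = 0.0915). The other members ranged from -0.99 (Oas2) to 0.41 (Oas1b), and the median of the 8 was -0.18, next to -0.01 for all genes. Macrophage (7.51 to 7.63 against 7.74 to 8.19) and monocyte marker sums (9.43 to 9.86 against 10.05 to 10.26) were also lower in Adar1 KO without overlap.

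After differentiation all 8 members were higher in Adar1 KO macrophages. Oas1a was 9.41, 9.25 and 8.91 in Adar1 KO macrophages and 6.78 and 6.57 in NTC macrophages. For Oas1g the values were 8.08, 7.86 and 7.49 against 3.53 and 3.67. No Adar1 KO library of either gene overlapped the NTC range, and NTC replicate 2, with 6.62 for Oas1a and 3.61 for Oas1g, lay with the other NTC libraries. The test called Oas1a (log2FC 2.52 ± 0.16, adjusted p = 1.28e-06, 3 of 3 libraries) and Oas1g (log2FC 4.21 ± 0.16, adjusted p = 7.5e-08, 3 of 3 libraries).

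The larger synthetases gave the same order. Oas2 was 6.87, 6.45 and 6.80 in Adar1 KO macrophages and 3.65 and 4.11 in NTC (log2FC 2.82 ± 0.25, adjusted p = 1.33e-05, 3 of 3 libraries). Oas3 was 7.61, 8.45 and 8.07 against 3.90 and 4.09 (log2FC 4.04 ± 0.34, adjusted p = 8.67e-06, 3 of 3 libraries). Oasl2 showed the largest difference of the 8, with 9.81, 9.54 and 9.10 against 3.60 and 3.54 (log2FC 5.91 ± 0.42, adjusted p = 2.42e-06, 3 of 3 libraries). None of the 3 overlapped.

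The inactive members followed, with the smallest difference of the 8 for Oas1c. Oas1b was 4.57, 4.37 and 3.82 against 1.56 and 1.05 (log2FC 2.95 ± 0.34, adjusted p = 8.65e-05, 3 of 3 libraries), and Oas1c was 4.12, 4.08 and 3.82 against 2.80 and 2.76 (log2FC 1.22 ± 0.25, adjusted p = 0.00545, 3 of 3 libraries). Oasl1 was 4.41, 3.65 and 2.96 against -2.66 and -1.52 (log2FC 5.76 ± 0.73, adjusted p = 0.000186, 3 of 3 libraries), and replicate 2 of NTC had -0.64. Oasl1 was thus below 1 CPM in all NTC libraries and above it in all Adar1 KO libraries. It passed the filter through Adar1 KO macrophages alone, so its call adds little. All 8 members were called, 8 higher and 0 lower, against 21.8% of all genes tested, and their median log2FC was 3.50 next to 0.05. Without Adar1 KO macrophage replicate 1, 2 or 3 the count was 7 of 7, since Oasl1 no longer passed the filter. Of the 10 marker lists, 8 had sums that did not overlap between Adar1 KO macrophages and the 3 NTC libraries. Monocyte markers (Ly6c2 and Ccr2) summed to 10.14, 9.72 and 8.67 in Adar1 KO, where Ly6c2 was most abundant, and 8.13, 7.71 and 7.84 in NTC, where Ccr2 was. Neutrophil markers (S100a8, S100a9, Ly6g and Camp, with S100a8 most abundant) summed to 6.11, 6.36 and 6.33 and 3.95, 2.49 and 3.43, with S100a9 at 0 in all but NTC replicate 3. Also higher in Adar1 KO were the sums of endothelium (6.66 to 7.14 against 4.95 to 5.60), microglia (6.51 to 6.73 against 5.36 to 5.55) and progenitor markers (Kit, Cd34, Flt3 and Myb, 1.61 to 3.30 against 0.62 to 0.77). Lower were those of border macrophage (5.90 to 6.50 against 8.98 to 9.58), macrophage (12.61 to 12.81 against 13.21 to 13.39) and oligodendrocyte markers (4.81 to 5.12 against 5.98 to 6.18). Their part in the result was not tested. In bulk samples, fewer cells of a type and less RNA per cell cannot be told apart.

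**Figure D1:**
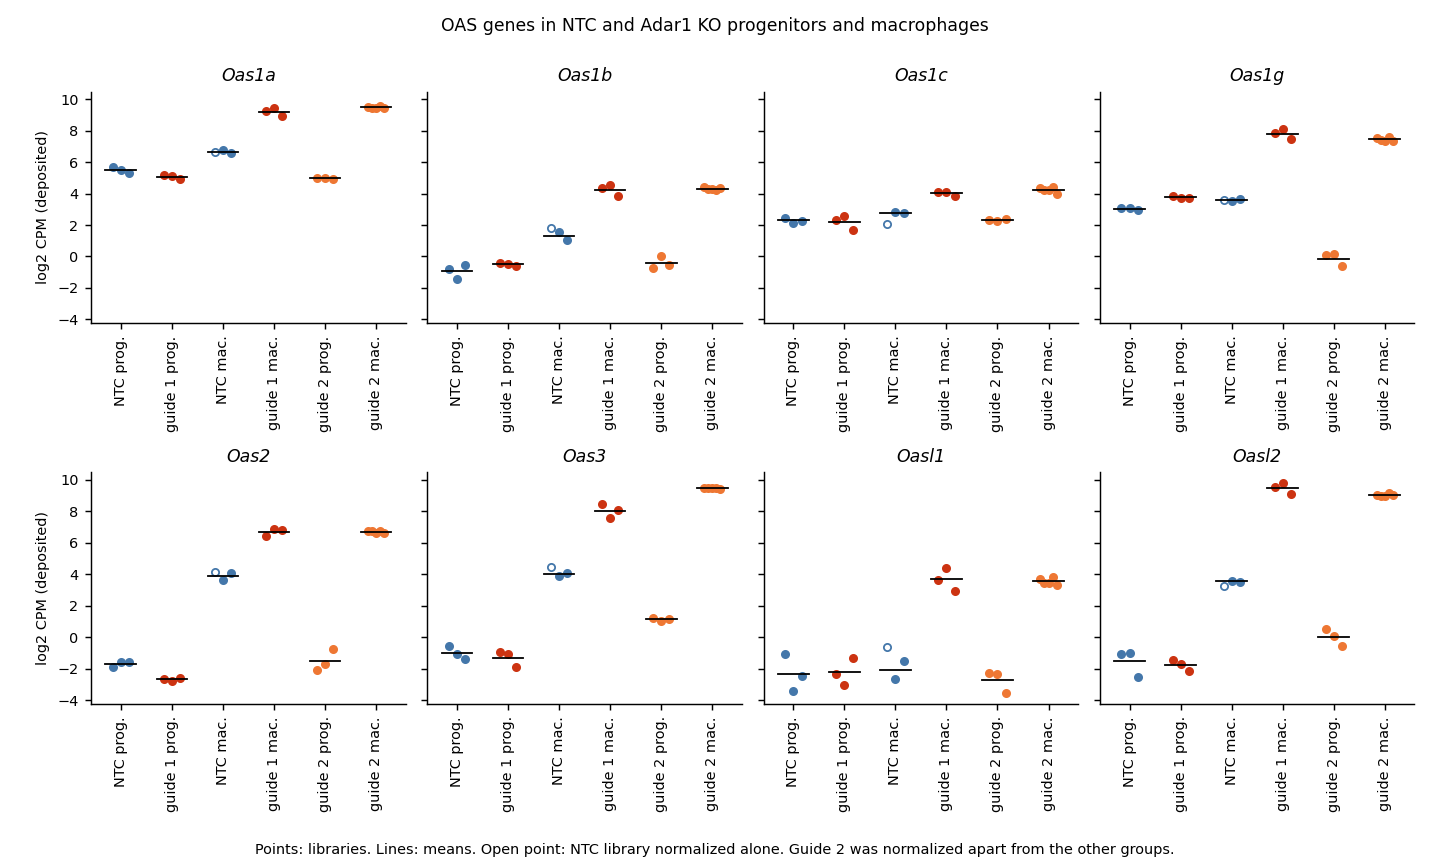
Level (log2 CPM) of each OAS member in every progenitor and macrophage library of the NTC, sgRNA #1 (guide 1) and sgRNA #2 (guide 2) cells, with a point per library and a line at each group mean. In sgRNA #1 macrophages Oasl2 sat at 9.81, 9.54 and 9.10, above all NTC macrophages, and sgRNA #2 libraries were normalized apart.

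A test of the difference between both editing effects asked whether the effect in macrophages exceeded that in progenitors. It did for 8 of 8 members, against 13.6% of all genes tested, with a median of 3.65 next to 0.08. The extra effect in macrophages was 2.93 for Oas1a, 3.49 for Oas1g, 3.82 for Oas2, 4.33 for Oas3 and 6.16 for Oasl2. Among inactive members it was 2.54 for Oas1b, 1.34 for Oas1c (adjusted p = 0.024) and 5.68 for Oasl1, which passed the filter through Adar1 KO macrophages alone, so that its call adds little. Oas1b, Oas2, Oas3 and Oasl2 exceeded 1 CPM in no progenitor library, so their calls add little as well. The adjusted p of Oas1c was 0.0528 without NTC progenitor replicate 2, 0.06 without Adar1 KO macrophage replicate 2, 0.067 without NTC macrophage replicate 1 and 0.0586 without NTC macrophage replicate 3. The last 2 of these leave 1 NTC macrophage library, which is assumed to vary like the other groups.

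Differentiation by itself was the next question, asked in each line. In NTC cells Oas2 was -1.56, -1.92 and -1.59 in progenitors and 3.65 and 4.11 in macrophages (log2FC 5.57 ± 0.25, adjusted p = 4.56e-09, 2 of 2 libraries). Oas3 was -1.09, -0.58 and -1.36 in progenitors (log2FC 5.01 ± 0.34, adjusted p = 1.38e-07, 2 of 2 libraries), and Oasl2 was -0.98, -1.09 and -2.50 (log2FC 5.10 ± 0.42, adjusted p = 6.22e-07, 2 of 2 libraries). Oas1a was 5.52, 5.69 and 5.28 in progenitors (log2FC 1.18 ± 0.16, adjusted p = 4.81e-05, 2 of 2 libraries). These 4 genes were higher in every NTC macrophage library than in any NTC progenitor library. Oas1b also rose (log2FC 2.22 ± 0.34, adjusted p = 0.000106, 2 of 2 libraries), and so did Oas1g (log2FC 0.56 ± 0.16, adjusted p = 0.00938, 2 of 2 libraries), though Oas1g did not pass without NTC macrophage replicate 3 (adjusted p = 0.0628), where the 1 library left in that group is assumed to vary like the others. Oas1c (log2FC 0.49 ± 0.25, adjusted p = 0.105, 2 of 2 libraries) and Oasl1 (log2FC 0.23 ± 0.73, adjusted p = 0.786, 1 of 2 libraries) did not pass. In all, 6 of 8 members were higher in NTC macrophages, against 71.8% of all genes called in either direction, a share near that of the members. Oas1b, Oas2, Oas3 and Oasl2 exceeded 1 CPM in this set only in macrophages, so their calls add little. Macrophages, NTC replicate 2 included, were above progenitors without overlap in marker sums of border macrophage (8.98 to 9.58 against 5.28 to 6.66) and macrophage (13.21 to 13.39 against 7.74 to 8.19) and below in astrocyte (-2.15 to 0.96 against 1.78 to 3.62), microglia (5.36 to 5.55 against 5.69 to 6.25), monocyte (7.71 to 8.13 against 10.05 to 10.26), neuron (-3.43 to 1.66 against 2.41 to 3.79), neutrophil (2.49 to 3.95 against 6.59 to 7.26) and progenitor (0.62 to 0.77 against 6.90 to 7.01). Their part was not tested here or with either guide.

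In Adar1 KO cells (sgRNA #1), 8 of 8 members were higher in macrophages, against 71.3% of all genes called. The difference was 4.11 for Oas1a, 4.05 for Oas1g, 9.39 for Oas2, 9.33 for Oas3 and 11.25 for Oasl2. Among inactive members it was 4.76 for Oas1b, 1.83 for Oas1c and 5.91 for Oasl1. The median was 5.34 here and 1.70 in NTC, next to -0.06 and -0.08 for all genes. Every member was higher in each Adar1 KO macrophage library than in any Adar1 KO progenitor library. Oas1b, Oas2, Oas3 and Oasl2 passed the filter through macrophages alone and Oasl1 through Adar1 KO macrophages alone, so their calls add little. Leaving out Adar1 KO macrophage replicate 1, 2 or 3 gave 7 of 7, again because Oasl1 was not tested. Marker sums above those of progenitors without overlap were endothelium (6.66 to 7.14 against 5.21 to 5.39), macrophage (12.61 to 12.81 against 7.51 to 7.63) and microglia (6.51 to 6.73 against 5.96 to 6.45), and below were astrocyte (-2.09 to -1.78 against 2.79 to 3.13), neuron (-2.47 to -1.62 against 2.81 to 3.70), neutrophil (6.11 to 6.36 against 6.73 to 7.03), oligodendrocyte (4.81 to 5.12 against 5.85 to 6.33) and progenitor (1.61 to 3.30 against 6.76 to 6.98).

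With the second guide all 8 members also rose on differentiation, in libraries normalized apart and with no NTC of their own, and the guides were not compared. Oas1a was 5.02, 5.00 and 4.90 in sgRNA #2 progenitors and 9.47, 9.49, 9.42, 9.43 and 9.58 in macrophages. Oas1g was 0.13, 0.09 and -0.62 in progenitors and 7.35, 7.54, 7.37, 7.41 and 7.61 in macrophages. Macrophage libraries were above all progenitor libraries for both genes. The test called Oas1a (log2FC 4.50 ± 0.05, adjusted p = 2.84e-13, 5 of 5 libraries) and Oas1g (log2FC 7.59 ± 0.16, adjusted p = 3.27e-11, 5 of 5 libraries).

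Among the larger synthetases, Oas3 was 1.06, 1.20 and 1.18 in sgRNA #2 progenitors and 9.51, 9.48, 9.43, 9.51 and 9.49 in macrophages (log2FC 8.34 ± 0.05, adjusted p = 1.52e-14, 5 of 5 libraries). Oas2 was -1.69, -2.11 and -0.75 and 6.61, 6.75, 6.63, 6.75 and 6.78 (log2FC 8.22 ± 0.25, adjusted p = 3.91e-10, 5 of 5 libraries). Oasl2 was 0.07, 0.50 and -0.53 and 8.99, 9.04, 9.03, 9.00 and 9.16 (log2FC 9.03 ± 0.18, adjusted p = 2.07e-11, 5 of 5 libraries). No groups overlapped. The inactive members Oas1b (4.71), Oas1c (1.90) and Oasl1 (6.28) rose too. That is 8 of 8 members, against 81.3% of all genes called, so most other genes were called as well. Their median was 6.93 next to -0.03. Oas1b, Oas2 and Oasl1 passed the filter here through macrophages alone. Marker sums above those of progenitors without overlap were endothelium (5.76 to 5.90 against 4.87 to 5.08), macrophage (12.57 to 12.66 against 8.42 to 8.45), microglia (5.74 to 5.96 against 5.07 to 5.36), neutrophil (4.04 to 4.41 against 3.06 to 3.49) and oligodendrocyte (5.07 to 5.48 against 3.98 to 4.26), and below were monocyte (6.62 to 6.93 against 7.79 to 7.99) and progenitor (1.15 to 1.97 against 6.09 to 6.30).

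The baricitinib experiment asked whether JAK inhibition moves these genes in Adar1 KO and NTC macrophages. At 0 µM the difference between lines was again large. Oas1a was 8.99, 8.86 and 8.98 in Adar1 KO and 7.05, 6.86 and 6.81 in NTC. Oas1g was 7.38, 7.39 and 7.40 against 3.98, 3.20 and 3.33, and both genes were higher in each Adar1 KO library than in any NTC library. Oas2 was 6.72, 6.26 and 6.09 against 3.85, 2.91 and 2.73. Oas3 was 8.70, 7.75 and 7.40 against 4.60, 4.36 and 3.99, and Oasl2 was 8.62, 8.59 and 8.67 against 3.46, 2.71 and 2.04. None of these 5 active members overlapped between lines.

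The inactive members at 0 µM were also separate between lines. Oas1b was 3.72, 3.31 and 3.18 in Adar1 KO and 1.18, 0.74 and 0.67 in NTC, Oas1c was 4.05, 3.56 and 3.53 and 2.90, 2.76 and 2.75, and Oasl1 was 2.19, 3.03 and 2.33 and -2.78, -1.70 and -1.10. In the fit of all 33 libraries, 7 of 8 members were higher in Adar1 KO, against 25.3% of all genes called, with Oas1c as the exception (log2FC 0.91 ± 0.39, adjusted p = 0.0903, 3 of 3 libraries). Called, with 3 of 3 libraries each, were Oas1a (log2FC 2.04 ± 0.64, adjusted p = 0.0196), Oas1g (log2FC 3.89 ± 0.94, adjusted p = 0.00291) and Oas2 (log2FC 3.19, adjusted p = 0.0404). It also called Oas3 (log2FC 3.63 ± 1.12, adjusted p = 0.0177), Oasl2 (log2FC 5.89 ± 1.41, adjusted p = 0.00265), Oas1b (log2FC 2.54 ± 0.86, adjusted p = 0.0301) and Oasl1 (log2FC 4.38 ± 1.21, adjusted p = 0.00831). The median was 3.41 next to -0.02 for all genes. Oasl1 exceeded 1 CPM in no NTC library and passed the filter through Adar1 KO libraries alone, so its call adds little. Marker sums separated the lines too. Without overlap, those of border macrophage (6.48 to 6.62 against 5.48 to 5.93), endothelium (6.14 to 6.47 against 5.69 to 5.80), microglia (7.75 to 8.45 against 6.88 to 7.18), monocyte (8.46 to 8.88 against 8.05 to 8.31) and progenitor markers (0.75 to 1.80 against 0.13 to 0.64) were higher in Adar1 KO, and those of neutrophil (5.76 to 6.07 against 6.23 to 6.58) and oligodendrocyte markers (4.98 to 5.34 against 5.75 to 6.02) lower. Their part in the result was not tested at this or other doses.

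The library of Adar1 KO at 0.4 µM that stood apart widened the spread of the whole set. Without it, all 8 members were called at 0 µM, against 30.8% of all genes, and the standard error of Oas1a was 0.20 in place of 0.64. With it, the count at 0 µM depended on single libraries. It was 6 without NTC replicate 1, 4 without NTC replicate 2, 3 without NTC replicate 3, 3 without Adar1 KO replicate 1 and 5 without Adar1 KO replicate 2 or 3. Oas2 was lost in each case, with adjusted p from 0.051 to 0.111. Oas1b was lost in all but the first (from 0.0512 to 0.0914). Oas1a was lost without NTC replicate 2 (0.0541), NTC replicate 3 (0.0554) or Adar1 KO replicate 1 (0.0532), and Oas3 without the last 2 of these (0.0569 and 0.075).

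The lowest doses left the lines apart. At 0.0006 µM Oas1a was 8.92, 9.12 and 9.09 in Adar1 KO and 6.71, 7.21 and 6.99 in NTC. Oas3 was 6.61, 6.96 and 6.94 against 3.17, 4.72 and 4.04, and Oasl2 was 8.61, 9.04 and 8.79 against 2.33, 3.59 and 3.14. Adar1 KO was above NTC without overlap for all 8 members. With all libraries, 4 of 8 were called, against 29% of all genes: Oas1a (log2FC 2.07 ± 0.64, adjusted p = 0.0155, 3 of 3 libraries), Oas1g (4.38), Oasl2 (5.79) and Oasl1 (4.89). Oasl1 passed the filter through Adar1 KO libraries alone, so its call adds little at this dose too. Without Adar1 KO at 0.4 µM replicate 2, all 8 were called, against 33.8% of all genes, for example Oas3 (log2FC 2.86 ± 0.50, adjusted p = 4.83e-05). Without NTC replicate 1 at this dose Oas1a was lost (adjusted p = 0.0515) and 3 remained, and without NTC replicate 2 the count was 5. Endothelium (6.24 to 6.81 against 5.42 to 5.61), microglia (7.78 to 8.39 against 6.63 to 6.98) and progenitor marker sums (1.05 to 2.32 against -0.09 to 0.58) were higher in Adar1 KO without overlap, and oligodendrocyte sums (4.80 to 5.04 against 5.88 to 6.10) lower.

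Within lines, 0.0006 µM against 0 µM gave 0 of 8 members by limma in NTC, with 0 at an unadjusted p under 0.05, against 0% of all genes. In Adar1 KO it was also 0 of 8, with 0 at an unadjusted p under 0.05, against 2.34% of all genes. Both counts were still 0 without Adar1 KO at 0.4 µM replicate 2, against 0% and 3.66% of all genes.

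At 0.016 µM the active members read lower in NTC than at 0 µM. In Adar1 KO, Oas3 also lay below every 0 µM value, Oas1a, Oas1g and Oasl2 lay above, and Oas2 overlapped. Oas1g in NTC was 0.86, 1.46, 2.17 and 1.56, and in Adar1 KO 7.78, 7.91 and 7.48. Oas3 was 1.93, 2.01, 1.95 and 2.28 in NTC and 6.99, 6.55 and 6.91 in Adar1 KO. Oasl2 was 0.34, 0.44, 1.52 and 0.05 in NTC and 9.20, 9.19 and 8.79 in Adar1 KO. Each of these NTC values was below all NTC values at 0 µM. Even so, 0 of 8 members passed in NTC against 0 µM by limma, with 2 at an unadjusted p under 0.05, against 0% of all genes, and the median was -1.41 next to -0.01. Without Adar1 KO at 0.4 µM replicate 2, 2 members were called in NTC, against 0.153% of all genes, Oas1g (log2FC -1.99 ± 0.37, adjusted p = 0.0328, 4 of 4 libraries) and Oas3 (log2FC -2.27 ± 0.47, adjusted p = 0.0381, 4 of 4 libraries). In Adar1 KO, 0 of 8 passed against 0 µM with limma, with 0 at an unadjusted p under 0.05, against 6.21% of all genes. Whether the 0.016 µM effect differed between lines was not tested. Endothelium (5.31 to 5.62 against 5.69 to 5.80) and microglia marker sums (6.55 to 6.77 against 6.88 to 7.18) were lower in NTC at 0.016 than at 0 µM, without overlap.

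By the median, the lines were furthest apart at this dose. Of the 8 members, 7 were higher in Adar1 KO than in NTC, against 32.2% of all genes, and the median was 4.63 next to 0.00. The test called, with 3 of 3 libraries each, Oas1a (log2FC 3.15 ± 0.60, adjusted p = 0.00017), Oas1g (log2FC 6.21 ± 0.88, adjusted p = 3.69e-06), and Oas2 (log2FC 4.95 ± 1.07, adjusted p = 0.000681). It also called Oas3 (log2FC 4.77 ± 1.05, adjusted p = 0.000838) and Oasl2 (log2FC 8.47 ± 1.32, adjusted p = 1.39e-05). The inactive members Oas1b (2.90) and Oasl1 (4.48) were called and Oas1c (log2FC 0.79 ± 0.37, adjusted p = 0.103, 3 of 3 libraries) was not, though without Adar1 KO at 0.4 µM replicate 2 it was (log2FC 0.79 ± 0.22, adjusted p = 0.00478). The call of Oasl1 adds little, since it exceeded 1 CPM in no NTC library. Monocyte (8.71 to 9.16 against 8.31 to 8.36), endothelium (6.53 to 7.08 against 5.31 to 5.62), microglia (8.20 to 8.67 against 6.55 to 6.77) and progenitor marker sums (1.62 to 2.15 against -0.15 to 0.59) were higher in Adar1 KO here without overlap, and oligodendrocyte sums (4.78 to 5.04 against 5.96 to 6.19) lower.

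**Figure D2:**
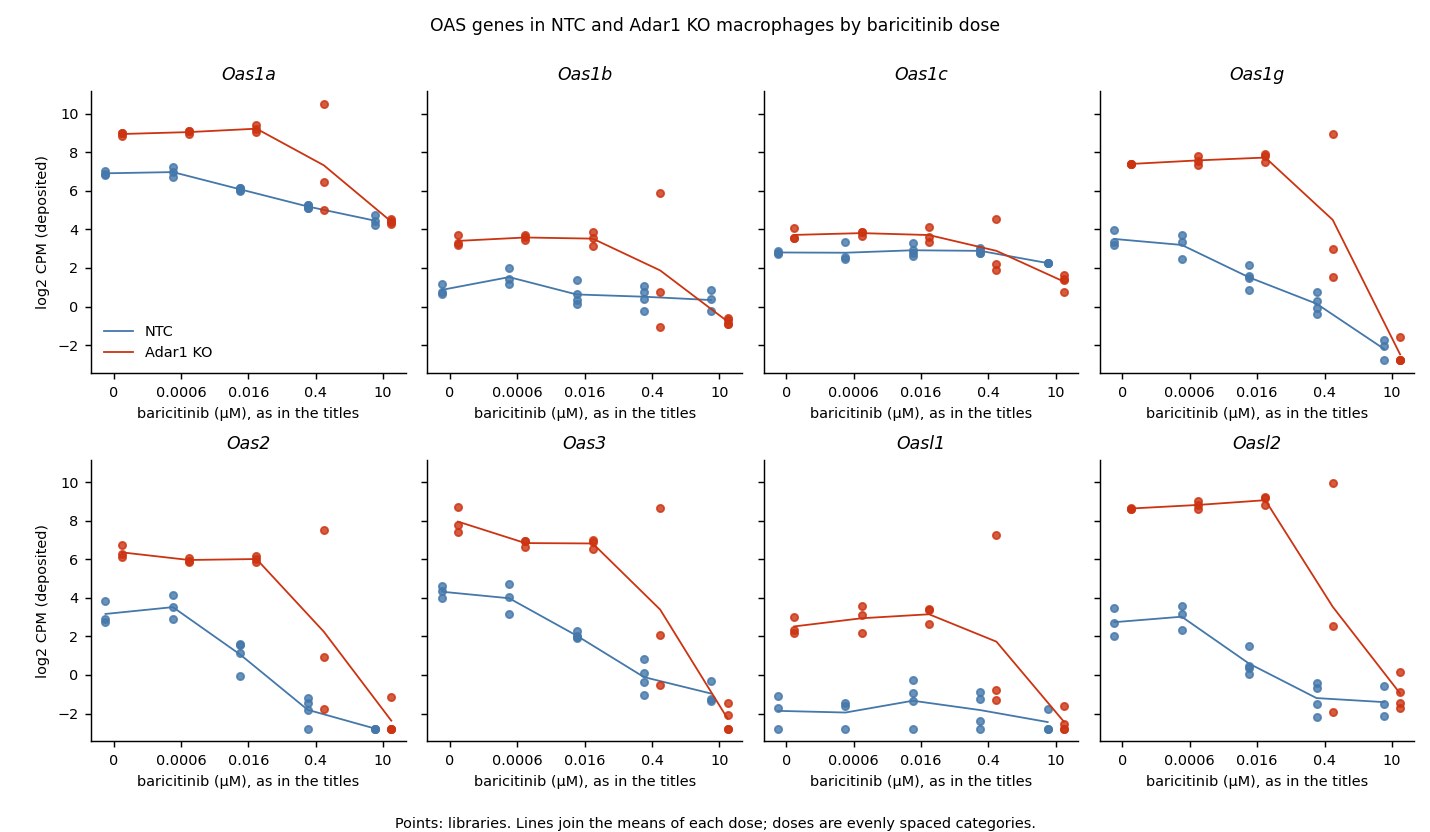
Level (log2 CPM) of each OAS member against baricitinib dose (µM, evenly spaced steps) in NTC and Adar1 KO macrophages, with a point per library and a line through group means. At 10 µM both lines were low, with Oas1a at 4.21, 4.42 and 4.72 in NTC and 4.52, 4.28, 4.45 and 4.36 in Adar1 KO, and at 0.4 µM replicate 2 of Adar1 KO stood far above replicates 1 and 3.

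At 0.4 µM the 3 Adar1 KO libraries split. Oas1a was 5.02 in replicate 1, 10.50 in replicate 2 and 6.44 in replicate 3, with NTC at 5.27, 5.12, 5.10 and 5.26. Oas3 was -0.53, 8.65 and 2.05 in Adar1 KO and 0.83, -1.02, 0.11 and -0.36 in NTC, and Oasl2 was -1.91, 9.97 and 2.55 and -0.69, -0.43, -1.50 and -2.17. Replicate 2 was above every untreated Adar1 KO library for Oas1a and Oasl2, replicate 1 lay in or below the NTC range, and replicate 3 lay between. Oas1g was 1.52, 8.96 and 3.00 and the only member whose 3 Adar1 KO values all lay above NTC (-0.06, -0.38, 0.30 and 0.73) with a call in both fits. Marker sums split as well. In replicates 1, 2 and 3 they were 8.09, 9.94 and 7.94 for monocyte, 6.20, 7.89 and 6.10 for endothelium, 1.54, 2.87 and 1.91 for progenitor, 7.94, 6.26 and 8.34 for neutrophil and 5.22, 3.53 and 4.88 for border macrophage markers. Microglia (7.86 to 8.33 against 6.61 to 6.91), endothelium (6.10 to 7.89 against 5.27 to 5.48) and progenitor sums (1.54 to 2.87 against -0.11 to 0.66) were higher in Adar1 KO than in NTC without overlap, and oligodendrocyte sums (5.05 to 5.66 against 5.83 to 6.01) lower.

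Tests at 0.4 µM rest on replicate 2. With it, 6 of 8 members were higher in Adar1 KO than in NTC, against 13.5% of all genes, for example Oas1a (log2FC 2.13 ± 0.60, adjusted p = 0.0183, 2 of 3 libraries) and Oasl2 (log2FC 4.73 ± 1.32, adjusted p = 0.0172, 2 of 3 libraries). Without it 2 were called, against 6.62% of all genes, Oas1g higher (log2FC 2.11 ± 0.42, adjusted p = 0.00127) and Oas1c lower (log2FC -0.83 ± 0.25, adjusted p = 0.0385), and Oasl2 was 1.52 (adjusted p = 0.24). Leaving out other libraries of the comparison moved it less. Oasl1 was lost without NTC replicate 1 (0.0828), 3 (0.0521) or 4 (0.0852), and Oas3 without NTC replicate 2 (0.0727) or 4 (0.0535). Without Adar1 KO replicate 1 the count was 7. Oas2, Oasl1 and Oasl2 exceeded 1 CPM in no NTC library at 0.4 µM, so their calls between lines add little.

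Against 0 µM, 4 of 8 members fell in Adar1 KO at 0.4 µM with all libraries, against 26.6% of all genes: Oas1g (log2FC -2.90 ± 0.94, adjusted p = 0.0231, 2 of 3 libraries), Oas2 (log2FC -4.11, adjusted p = 0.00871, 2 of 3 libraries), Oas3 (log2FC -4.56 ± 1.12, adjusted p = 0.00355, 2 of 3 libraries) and Oasl2 (log2FC -5.09 ± 1.41, adjusted p = 0.00839, 2 of 3 libraries). Without replicate 2 all 8 fell, against 32.8% of all genes, among them Oasl2 (log2FC -8.31 ± 0.76, adjusted p = 1.68e-09), Oas3 (log2FC -7.19 ± 0.56, adjusted p = 8.94e-11) and Oas1a (log2FC -3.21 ± 0.22, adjusted p = 8.03e-12), with 2 of 2 libraries each. The count was 0 without replicate 1 and 2 without replicate 3. Oas1g was also lost without untreated Adar1 KO replicate 1 (adjusted p = 0.0651) or 2 (0.0543).

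In NTC at 0.4 µM the active members were low in all 4 libraries. Oas1g was -0.06, -0.38, 0.30 and 0.73 and Oas2 -1.20, -1.44, -1.80 and -2.78, against 3.98, 3.20 and 3.33 and 3.85, 2.91 and 2.73 at 0 µM. For Oas1a, Oas1g, Oas2, Oas3 and Oasl2 no 0.4 µM library reached a 0 µM library. Macrophage (12.47 to 12.55 against 12.57 to 12.61) and endothelium marker sums (5.27 to 5.48 against 5.69 to 5.80) were also lower at 0.4 µM without overlap. Oas2 and Oasl2 exceeded 1 CPM in no NTC library at 0.4 µM and passed the filter through other groups, so their calls add little. With all libraries, 0 of 8 passed by limma, with 5 at an unadjusted p under 0.05, against 0.00897% of all genes, and the median was -2.54 next to -0.01. Without Adar1 KO at 0.4 µM replicate 2, which is in neither group, 5 of 8 were lower, against 0.629% of all genes: Oas1a (log2FC -1.72 ± 0.18, adjusted p = 1.87e-06), Oas1g (log2FC -3.35 ± 0.37, adjusted p = 2.19e-06), Oas2 (log2FC -4.97 ± 0.50, adjusted p = 8.78e-07), Oas3 (log2FC -4.43 ± 0.47, adjusted p = 1.87e-06) and Oasl2 (log2FC -3.93 ± 0.64, adjusted p = 0.000715), each in 4 of 4 libraries. The effect of 0.4 µM differed between lines for 0 of 8 members with all libraries by limma, with 0 at an unadjusted p under 0.05, against 4.76% of all genes. Without replicate 2 it differed for 7 of 8, against 13.7% of all genes, with a larger fall in Adar1 KO, as for Oas3 (log2FC -2.76 ± 0.73, adjusted p = 0.0104) and Oasl2 (log2FC -4.38 ± 0.99, adjusted p = 0.00297), and Oas2 did not pass (log2FC -1.80 ± 0.78, adjusted p = 0.13). The 7 include Oasl1, which exceeded 1 CPM in Adar1 KO libraries alone, so its part was fixed beforehand.

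At 10 µM the family was low in both lines. Oas1a was 4.52, 4.28, 4.45 and 4.36 in Adar1 KO and 4.21, 4.42 and 4.72 in NTC. Oas1g was -2.78, -2.78, -1.58 and -2.78 in Adar1 KO, where -2.78 stands for a count of 0, and -2.78, -1.74 and -2.06 in NTC. Both genes overlapped between lines at this dose and lay below every 0 µM value of their line. Oas2 was at 0 in all 3 NTC libraries and in 3 of 4 Adar1 KO libraries, with -1.13 in replicate 4. Oas3 was -2.78, -2.05, -2.78 and -1.43 in Adar1 KO and -1.37, -0.30 and -1.23 in NTC, and Oasl2 was -1.43, -0.86, -1.69 and 0.14 and -2.14, -0.59 and -1.49. Oasl2 overlapped between lines, and all 4 Adar1 KO values of Oas3 were below those of NTC.

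Against 0 µM, 8 of 8 members fell in Adar1 KO at 10 µM, against 65.8% of all genes, with a median of -6.83 next to 0.05. Of these, Oas1b, Oas1g, Oas2, Oas3, Oasl1 and Oasl2 exceeded 1 CPM in no Adar1 KO library at 10 µM. They passed the filter through other groups, so their calls add little. Every treated library was below every untreated one. The test called Oas1a (log2FC -4.54 ± 0.60, adjusted p = 1.97e-07), Oas1g (log2FC -9.87 ± 0.88, adjusted p = 1.63e-10), Oas3 (log2FC -10.21 ± 1.05, adjusted p = 2.55e-09) and Oasl2 (log2FC -9.59 ± 1.32, adjusted p = 3.76e-07), with 4 of 4 libraries each. Oas2 gave -8.72, and the inactive members -4.17 (Oas1b), -2.42 (Oas1c) and -4.93 (Oasl1). A count of 0 was found in 3 of 4 treated libraries for Oas1g and Oas2 and in 2 of 4 for Oas3 and Oasl1, so the sizes of these falls, their order and the median depend on the lowest value.

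In NTC, 5 of 8 members fell at 10 µM, against 13.8% of all genes, and these were the 5 active synthetases. Among them Oas1g, Oas2, Oas3 and Oasl2 exceeded 1 CPM in no NTC library at 10 µM. They passed the filter through other groups, so their calls add little. Oas1a fell (log2FC -2.45 ± 0.64, adjusted p = 0.0114, 3 of 3 libraries), as did Oas1g (log2FC -5.70 ± 0.94, adjusted p = 0.000203, 3 of 3 libraries), Oas3 (log2FC -5.28 ± 1.12, adjusted p = 0.00248, 3 of 3 libraries) and Oasl2 (log2FC -4.14 ± 1.41, adjusted p = 0.0486, 3 of 3 libraries). Oas2 went from 3.85, 2.91 and 2.73 to a count of 0 in 3 of 3 libraries. The inactive members did not pass: Oas1b (log2FC -0.53 ± 0.86, adjusted p = 0.739, 3 of 3 libraries), Oas1c (log2FC -0.55 ± 0.39, adjusted p = 0.381, 3 of 3 libraries) and Oasl1 (log2FC -0.58 ± 1.21, adjusted p = 0.803, 2 of 3 libraries), of which Oasl1 was below 1 CPM already at 0 µM. The median was -3.30 next to 0.00, and the place of Oas2 at its low end does not move it. Oasl2 was lost without any one of 6 libraries, with adjusted p of 0.157, 0.0951 and 0.0744 without NTC replicates 1, 2 and 3 at 0 µM and 0.144, 0.0798 and 0.102 without those at 10 µM. Oas1a was lost without NTC replicate 1 at 0 µM (0.0503), which left 3. The count was 5 also without Adar1 KO at 0.4 µM replicate 2, against 20.9% of all genes.

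The 10 µM effect was larger in Adar1 KO than in NTC for 6 of 8 members, against 39.5% of all genes. The difference between lines was Oas1g (log2FC -4.18 ± 1.29, adjusted p = 0.0116), Oas3 (log2FC -4.93 ± 1.54, adjusted p = 0.0126) and Oasl2 (log2FC -5.45 ± 1.93, adjusted p = 0.0264). Among inactive members it was Oas1b (log2FC -3.64 ± 1.18, adjusted p = 0.0156), Oas1c (log2FC -1.87 ± 0.54, adjusted p = 0.00718) and Oasl1 (log2FC -4.35 ± 1.65, adjusted p = 0.0377). Oas1a (log2FC -2.08 ± 0.88, adjusted p = 0.0602) and Oas2 (adjusted p = 0.163) did not pass, and the median was -3.91 next to 0.06. Sizes for members with a count of 0 at 10 µM depend on the lowest value here too. Oasl1 in NTC was below 1 CPM at 0 µM and passed the filter through Adar1 KO libraries alone, so its larger effect was fixed beforehand, which leaves 5. Of these 5, Oas1g, Oas3 and Oasl2 exceeded 1 CPM in no 10 µM library of either line. For them the difference largely repeats that between lines at 0 µM, so their calls add little. Oas1b exceeded 1 CPM in no Adar1 KO library at 10 µM. Without Adar1 KO at 0.4 µM replicate 2 all 8 differed, against 44.7% of all genes, Oas1a with log2FC -2.08 ± 0.27, adjusted p = 5.99e-07. Oasl1 was lost without any of 11 single libraries, namely NTC replicate 1 or 2 at 0 µM, NTC replicate 1, 2 or 3 at 10 µM, Adar1 KO replicate 1, 2 or 3 at 0 µM, or Adar1 KO replicate 2, 3 or 4 at 10 µM, with adjusted p from 0.0504 to 0.0863. Oasl2 was lost without NTC replicate 3 at 0 µM (0.0589) or NTC replicate 2 at 10 µM (0.0604), and the latter left 4.

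Between lines at 10 µM, 1 of 8 members was called, against 45.3% of all genes. It was Oas1c, lower in Adar1 KO with 1.37, 1.41, 0.77 and 1.63 against 2.24, 2.26 and 2.26 (log2FC -0.96 ± 0.37, adjusted p = 0.0342, 4 of 4 libraries). The median of the 8 was -0.17 next to 0.00. The call was lost without NTC replicate 1 (0.0715), 2 (0.0759) or 3 (0.076) or Adar1 KO replicate 3 (0.102), and with library medians set equal. Without Adar1 KO at 0.4 µM replicate 2, Oas1b (log2FC -1.11 ± 0.36, adjusted p = 0.0127), Oas1c (log2FC -0.96 ± 0.22, adjusted p = 0.000561) and Oas3 (log2FC -1.30 ± 0.47, adjusted p = 0.0229) were lower in Adar1 KO, each in 4 of 4 libraries, against 50.6% of all genes called. Marker sums at 10 against 0 µM differed in both lines. In Adar1 KO they were macrophage (11.78 to 12.04 against 12.60 to 12.73), monocyte (6.77 to 7.28 against 8.46 to 8.88), progenitor (3.45 to 3.86 against 0.75 to 1.80), endothelium (4.96 to 5.31 against 6.14 to 6.47), border macrophage (5.67 to 6.14 against 6.48 to 6.62), microglia (6.05 to 7.32 against 7.75 to 8.45), neutrophil (6.12 to 7.20 against 5.76 to 6.07) and oligodendrocyte (4.67 to 5.18 against 4.98 to 5.34). In NTC they were macrophage (12.23 to 12.35 against 12.57 to 12.61), monocyte (6.80 to 7.10 against 8.05 to 8.31), progenitor (0.68 to 1.16 against 0.13 to 0.64), endothelium (4.49 to 5.03 against 5.69 to 5.80), border macrophage (3.95 to 4.80 against 5.48 to 5.93), microglia (7.22 to 7.36 against 6.88 to 7.18), neutrophil (4.66 to 6.44 against 6.23 to 6.58) and oligodendrocyte (5.40 to 5.64 against 5.75 to 6.02). Oligodendrocyte sums in Adar1 KO and neutrophil sums in NTC overlapped between doses.

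The brain set asked how far cells in the brain resemble microglia and each other. In the mean of the 8 members, ER-Hoxb8 MLCs were highest in that set and microglia lowest. Oas1a was 6.48 to 8.29 (median 7.63) in ER-Hoxb8 MLCs, 4.63 to 5.58 (median 5.17) in BMD MLCs and -1.17 to 2.45 (median 1.36) in microglia. It was 7.35, 6.95 and 6.73 in ER-Hoxb8 macrophages and 6.32, 5.82 and 6.51 in BMD macrophages in vitro. The 3 brain groups did not overlap, and ER-Hoxb8 MLCs overlapped their in vitro macrophages. Oas1g was 5.22 to 6.25 (median 5.67) in ER-Hoxb8 MLCs, -1.88 to 3.70 (median 2.13) in BMD MLCs and -2.80 to -0.02 (median -1.59) in microglia, with 3.44, 3.45 and 4.70 in ER-Hoxb8 and 3.11, 1.66 and 3.32 in BMD macrophages.

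The larger synthetases were ordered alike in the brain. Oas2 was 3.55 to 6.90 (median 5.27) in ER-Hoxb8 MLCs, 0.05 to 2.12 (median 1.04) in BMD MLCs and -3.62 to 0.48 (median -1.60) in microglia. Oas3 was 4.07 to 6.66 (median 5.07), 0.25 to 3.04 (median 0.89) and -1.62 to -0.07 (median -0.45) in the same groups. Oasl2 was 7.86 to 9.48 (median 8.52), 4.83 to 5.77 (median 5.22) and -1.16 to 2.41 (median 1.77). For Oas3 and Oasl2 no brain group overlapped another, and for Oas2 BMD MLCs overlapped microglia. In vitro, Oas2 was 3.43, 3.25 and 1.37 in ER-Hoxb8 and 2.86, 2.68 and 3.11 in BMD macrophages. Oas3 was 3.37, 4.54 and 0.92 and 4.80, 4.91 and 6.07, and Oasl2 was 2.08, 2.53 and -0.01 and 3.09, 2.69 and 4.41.

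Of the inactive members, Oasl1 stood out. It was 4.06 to 6.66 (median 5.74) in ER-Hoxb8 MLCs, -2.45 to 2.41 (median 1.03) in BMD MLCs, -3.15 to 0.49 (median -0.98) in microglia and -2.51, -3.62 and -3.62 in ER-Hoxb8 macrophages. Every ER-Hoxb8 MLC library was above every other library of the set. Oas1b was 1.97 to 4.31 (median 3.35), -0.20 to 2.46 (median 1.96) and -0.50 to 1.46 (median 0.52) in the 3 brain groups, and Oas1c was -1.90 to 2.91 (median 1.17), -3.62 to 2.22 (median 0.50) and -3.62 to -0.18 (median -1.03). Oas1c overlapped between all brain groups, and 3 of 9 microglia libraries were at a count of 0 for it.

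**Figure D3:**
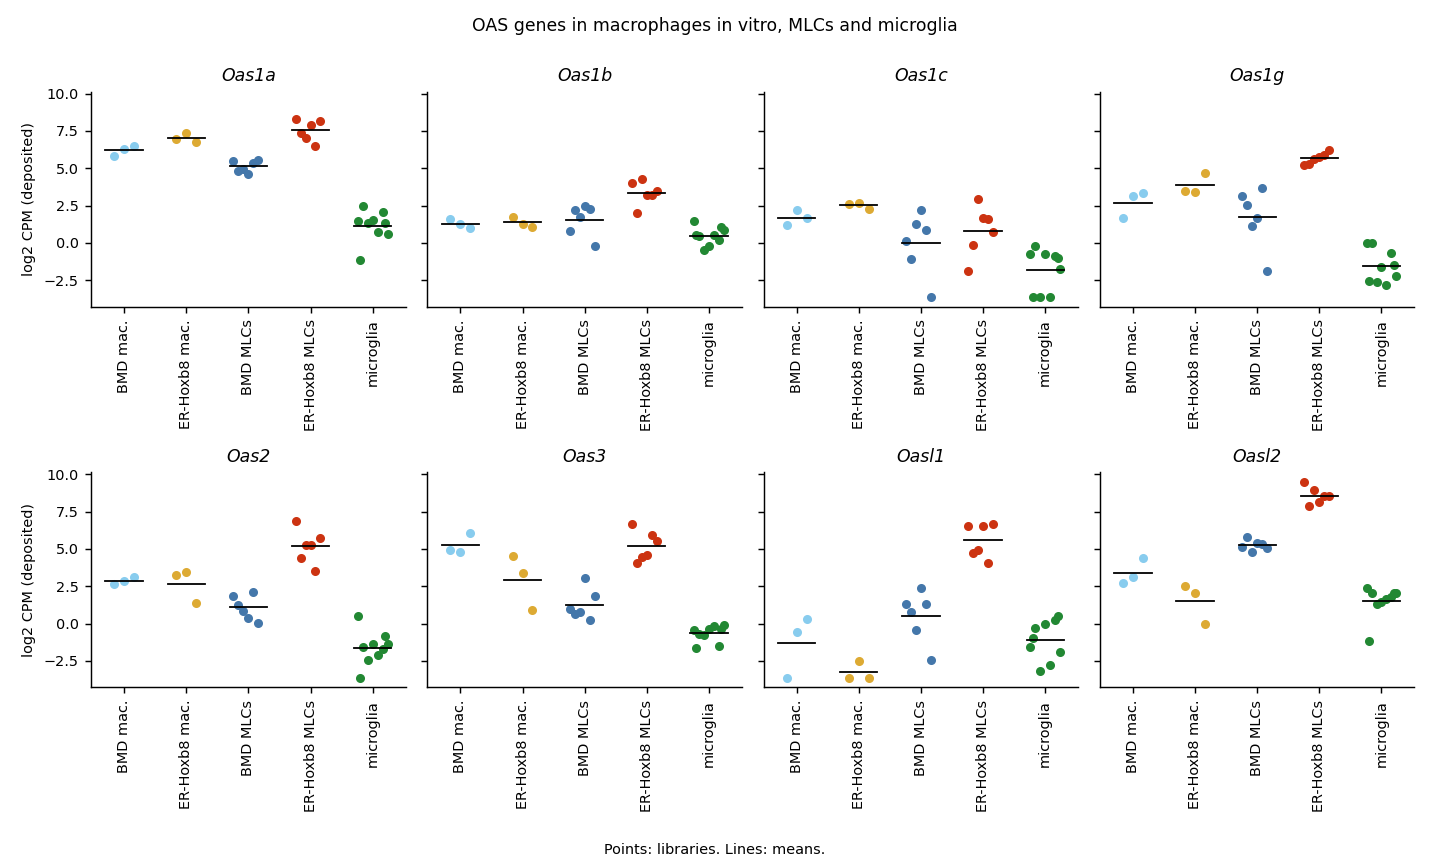
Level (log2 CPM) of each OAS member in in vitro macrophages, MLCs and microglia, with a point per library and a line at each group mean. ER-Hoxb8 MLCs ranged from 7.86 to 9.48 for Oasl2, above BMD MLCs (4.83 to 5.77) and microglia (-1.16 to 2.41).

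Compared with microglia, 8 of 8 members were higher in ER-Hoxb8 MLCs, against 33.9% of all genes called, with a median of 6.54 next to -0.10. The test called Oas1a (log2FC 6.39 ± 0.39, adjusted p = 1.31e-12, 6 of 6 libraries), Oas1g (log2FC 7.21 ± 0.63, adjusted p = 8.04e-10, 6 of 6 libraries) and Oas2 (log2FC 6.81 ± 0.54, adjusted p = 1.43e-10, 6 of 6 libraries). It also called Oas3 (log2FC 5.87 ± 0.51, adjusted p = 7.84e-10, 6 of 6 libraries) and Oasl2 (log2FC 7.07 ± 0.44, adjusted p = 2.21e-12, 6 of 6 libraries). Among inactive members the values were 2.88 for Oas1b and 6.69 for Oasl1, each in 6 of 6 libraries, and Oas1c (log2FC 2.61 ± 0.79, adjusted p = 0.0109, 5 of 6 libraries), whose groups overlap. Leaving out any 1 of the 15 libraries, microglia replicate 8 included, left the count at 8. Oas1c, Oas1g and Oas3 exceeded 1 CPM in no microglia library and passed the filter through other groups, so their calls add little.

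BMD MLCs were higher than microglia in 5 of 8 members, against 20.5% of all genes, with a median of 2.31 next to 0.06. These were the 5 active synthetases: Oas1a (log2FC 3.99 ± 0.39, adjusted p = 1.15e-08, 6 of 6 libraries), Oas1g (log2FC 3.27 ± 0.63, adjusted p = 0.000364, 5 of 6 libraries), Oas2 (log2FC 2.70 ± 0.54, adjusted p = 0.000574, 6 of 6 libraries), Oas3 (log2FC 1.92 ± 0.51, adjusted p = 0.00749, 6 of 6 libraries) and Oasl2 (log2FC 3.74 ± 0.44, adjusted p = 3.93e-07, 6 of 6 libraries). The inactive members did not pass, with Oas1b (log2FC 1.06 ± 0.43, adjusted p = 0.0816, 5 of 6 libraries), Oas1c (log2FC 1.76 ± 0.79, adjusted p = 0.123, 5 of 6 libraries) and Oasl1 (log2FC 1.60 ± 0.73, adjusted p = 0.13, 5 of 6 libraries). That split rests on BMD MLC replicate 3, since without it 8 of 8 were called, against 19.2% of all genes. Oas1g and Oas3, and Oas1c in that last fit, exceeded 1 CPM in no microglia library, so their calls add little.

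Between both kinds of MLC, 7 of 8 members were higher in ER-Hoxb8 MLCs, against 15.2% of all genes, with a median of 3.63. The median over all genes was -0.22, a shift that setting library medians equal removes, and the members' count was 7 with that setting also. The test called Oas1a (log2FC 2.40 ± 0.42, adjusted p = 0.000292, 6 of 6 libraries), Oas1g (log2FC 3.94 ± 0.69, adjusted p = 0.000279, 6 of 6 libraries) and Oas2 (log2FC 4.11 ± 0.60, adjusted p = 2.29e-05, 6 of 6 libraries). It also called Oas3 (log2FC 3.95 ± 0.56, adjusted p = 1.76e-05, 6 of 6 libraries), Oasl2 (log2FC 3.32 ± 0.49, adjusted p = 2.56e-05, 6 of 6 libraries) and Oasl1 (log2FC 5.09 ± 0.80, adjusted p = 6.65e-05, 6 of 6 libraries). Oas1b was called with overlapping groups (log2FC 1.82 ± 0.47, adjusted p = 0.00898, 6 of 6 libraries), and Oas1c was not (log2FC 0.85 ± 0.86, adjusted p = 0.557, 4 of 6 libraries). Leaving out any 1 of the 12 libraries left the count at 7. With the 3 GFPHox libraries, a series described next, as the only ER-Hoxb8 MLCs, Oas1b lost its call (log2FC 1.34, adjusted p = 0.112) and 6 members were called, against 14.3% of all genes.

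The ER-Hoxb8 MLC labels name 2 series of 3 libraries, GFPHox (replicates 1 to 3) and WTHox (replicates 4 to 6). Microglia marker sums were 11.49, 11.18 and 10.05 in GFPHox and 8.34, 8.20 and 5.58 in WTHox. Neutrophil sums were 8.75, 7.08 and 7.50 in GFPHox and 13.43, 14.64 and 11.19 in WTHox. For Oasl2, all libraries of both series were above every BMD MLC library.

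Against their own in vitro macrophages, MLCs of both origins differed. In ER-Hoxb8 MLCs 5 of 8 members were higher, against 34.8% of all genes, with a median of 2.13 next to -0.15, a shift that setting library medians equal removes with the count still 5. Among them were Oasl2 (log2FC 7.04 ± 0.60, adjusted p = 1.52e-09, 6 of 6 libraries) and Oasl1 (log2FC 8.82 ± 0.98, adjusted p = 1.59e-07, 6 of 6 libraries). The size for Oasl1 depends on the lowest value because 2 of 3 ER-Hoxb8 macrophage libraries were at a count of 0. Oasl1 exceeded 1 CPM in no ER-Hoxb8 macrophage library and passed the filter through other groups, so its call adds little. Oas1b (log2FC 2.00 ± 0.57, adjusted p = 0.0089, 6 of 6 libraries), Oas2 (log2FC 2.51 ± 0.73, adjusted p = 0.00995, 6 of 6 libraries) and Oas3 (log2FC 2.26 ± 0.69, adjusted p = 0.0132, 6 of 6 libraries) were called as well, and the groups overlapped for Oas3. Oas1a (log2FC 0.53 ± 0.52, adjusted p = 0.444, 5 of 6 libraries), Oas1g (log2FC 1.80 ± 0.85, adjusted p = 0.1, 6 of 6 libraries) and Oas1c (log2FC -1.72 ± 1.06, adjusted p = 0.208, 5 of 6 libraries) did not pass. Without ER-Hoxb8 macrophage replicate 3, which was low in Oas2 (1.37) and Oas3 (0.92), both genes lost their call (adjusted p = 0.0928 and 0.184) and 3 members remained. With the GFPHox series alone the count was also 3, against 26.3% of all genes.

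In BMD MLCs 2 of 8 members differed from BMD macrophages, in opposite directions, against 30.6% of all genes, a share near that of the members. Oas3 was lower (decreased by 4.00 ± 0.69 on the log2 scale, adjusted p = 0.000121, 6 of 6 libraries) and Oasl2 higher (log2FC 1.86 ± 0.60, adjusted p = 0.0197, 6 of 6 libraries), both without overlap. The median was -1.02 next to -0.01, and 4 members had an unadjusted p under 0.05. Oasl2 was lost without BMD macrophage replicate 1 (adjusted p = 0.0821) or 2 (0.108), and without BMD MLC replicate 5 the count was 3. Between ER-Hoxb8 and BMD macrophages in vitro, 0 of 8 members passed by limma, with 2 at an unadjusted p under 0.05, against 1.96% of all genes, and the median was -0.06.

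Markers of other cells differed between the brain groups as well. Macrophage marker sums were 12.78, 12.53, 12.13, 11.60, 11.38 and 11.39 in ER-Hoxb8 MLCs 1 to 6. They were 12.40 to 12.98 in BMD MLCs and 12.06 to 14.36 in microglia. Neutrophil markers summed to 11.84, 11.14, 13.96, 14.24, 13.89 and 14.07 in BMD MLCs 1 to 6, 8.75, 7.08, 7.50, 13.43, 14.64 and 11.19 in ER-Hoxb8 MLCs 1 to 6, 7.71 to 11.71 in microglia, and at most 4.64 in in vitro macrophages, with S100a8 most abundant in all but microglia replicate 8. Border macrophage markers (Mrc1, Cd163, Lyve1 and Pf4, with Mrc1 most abundant) summed to 10.54 to 11.14 in BMD MLCs, 9.77, 9.97, 7.16, 9.49, 7.09 and 1.39 in ER-Hoxb8 MLCs and 3.32 to 6.66 in microglia. Monocyte markers summed to 7.27 to 8.49 in BMD MLCs, 6.51, 6.75, 7.72, 7.07, 7.40 and 12.48 in ER-Hoxb8 MLCs and 3.46 to 5.73 in microglia, with Ccr2 most abundant in all but 2 ER-Hoxb8 MLC and 2 microglia libraries. Endothelial markers (Cldn5, Pecam1, Flt1 and Tie1, mostly Flt1 in ER-Hoxb8 MLCs and Pecam1 in BMD MLCs, with Cldn5 at 0 in 11 of those 12) summed to 5.49 to 6.51 in ER-Hoxb8 MLCs and 3.57 to 4.88 in BMD MLCs. Astrocyte markers (Gfap, Aqp4, Slc1a2 and Gja1, mostly Gfap or Slc1a2) summed to 4.06 to 5.09 in ER-Hoxb8 MLCs and 2.53 to 3.82 in BMD MLCs. Endothelial, astrocyte and border macrophage sums did not overlap between both kinds of MLC. Macrophage sums were higher in ER-Hoxb8 (12.89 to 13.39) and BMD macrophages (13.01 to 13.39) than in their MLCs, without overlap. Lower in ER-Hoxb8 macrophages were oligodendrocyte (4.43 to 5.53 against 5.64 to 7.40), endothelial (2.87 to 4.93) and astrocyte sums (-1.81 to -1.73). Lower in BMD macrophages were border macrophage (7.76 to 8.31), monocyte (2.10 to 2.80) and microglia sums (1.32 to 5.50). The part of these markers in the OAS differences was not tested.

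The remaining comparisons follow progenitors, monocytes and the ER-Hoxb8 time course. BM monocytes and BM progenitors differed in 1 of 8 members, against 13.8% of all genes, a share near that of the members. It was the inactive Oas1c, -0.56, 0.31 and -0.76 in monocytes and 1.72, 2.01 and 1.33 in progenitors, with no overlap (log2FC -2.02 ± 0.41, adjusted p = 0.00958, 3 of 3 libraries). None of the active members passed with all libraries. Oas1a was 4.12, 5.15 and 4.57 in monocytes and 2.73, 3.63 and 3.64 in progenitors (log2FC 1.28 ± 0.43, adjusted p = 0.0686, 3 of 3 libraries), and Oasl2 was 3.69, 3.76 and 3.66 and 0.45, 1.37 and 2.19 (log2FC 2.37 ± 1.28, adjusted p = 0.239, 3 of 3 libraries). The median of the 8 was 1.11 next to -0.09. Without ER-Hoxb8 day 0 replicate 2, a library outside this pair, 4 members were called, against 21.6% of all genes: Oas1c lower (-2.02) and Oas1a (log2FC 1.28 ± 0.34, adjusted p = 0.0248), Oas3 (log2FC 1.54 ± 0.45, adjusted p = 0.0326) and Oasl2 (log2FC 2.37 ± 0.50, adjusted p = 0.00873) higher, each in 3 of 3 libraries. Among the marker lists described, sums without overlap were higher in monocytes for macrophage (10.26 to 10.51 against 7.06 to 7.57), monocyte (11.25 to 11.56 against 7.63 to 8.89) and oligodendrocyte markers (5.68 to 6.44 against 5.38 to 5.53). They were lower for progenitor (6.67 to 7.21 against 8.44 to 9.03), microglia (4.20 to 5.39 against 5.70 to 6.78), astrocyte (0.55 to 2.50 against 3.57 to 4.92) and neuron markers (-4.34 to -3.85 against -2.79 to -1.13). Their part was not tested in any time course comparison.

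ER-Hoxb8 progenitors at day 0 differed from BM progenitors in 3 of 8 members, against 25.5% of all genes. Oas1a was 5.91, 6.95 and 5.32 at day 0, above all BM progenitors (log2FC 2.73 ± 0.43, adjusted p = 0.000701, 3 of 3 libraries). Oas1g was 3.19, 3.60 and 4.04 against -1.44, -1.31 and -0.66 (log2FC 4.74 ± 0.59, adjusted p = 0.000137, 3 of 3 libraries). It exceeded 1 CPM in no BM progenitor library and passed the filter mainly through ER-Hoxb8 cells, so this call adds little. Oasl1 was lower, with -4.34, -2.40 and -3.90 against 1.47, 0.40 and 1.03 (log2FC -4.52 ± 0.67, adjusted p = 0.00047, 3 of 3 libraries), though it passed the filter through BM cells alone, so that this call adds little. None of the 3 overlapped. Oas2 was 0.07, 3.76 and -2.53 at day 0, Oas3 -1.58, 4.48 and -0.95 and Oasl2 -4.34, 1.93 and -3.79, with replicate 2 far above the others in each. Without replicate 2, 5 members were called, against 28.5% of all genes, adding Oas3 (log2FC -2.79 ± 0.50, adjusted p = 0.0019) and Oasl2 (log2FC -5.41 ± 0.56, adjusted p = 5.17e-05), both lower. The median with all libraries was 0.34 next to -0.08. Macrophage marker sums were higher at day 0 (8.74 to 12.24 against 7.06 to 7.57). Lower were those of progenitor (4.29 to 6.59 against 8.44 to 9.03), neutrophil (2.34 to 5.03 against 6.41 to 11.38), endothelium (2.49 to 5.00 against 5.89 to 6.46) and astrocyte markers (-4.34 to -0.80 against 3.57 to 4.92), and neuron markers were at 0 in all day 0 libraries, none of these lists overlapping.

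From day 0 to day 4, 0 of 8 members passed by limma, with 5 at an unadjusted p under 0.05, against 0% of all 12056 genes. Same-numbered libraries of both days deviated from their group means alike (r of 0.226 to 0.427), which that fit ignores. With replicate number as a block the count of members was also 0. At day 4 Oas1a was 7.66, 7.05 and 7.24, Oas2 3.80, 3.66 and 2.77, Oas3 3.38, 4.39 and 2.93 and Oasl2 2.90, 1.75 and 2.06. Oas2, Oas3 and Oasl2 of day 4 were above day 0 replicates 1 and 3 and overlapped replicate 2. With all libraries the test gave Oasl2 (log2FC 4.31 ± 1.28, adjusted p = 0.497, 3 of 3 libraries), and the median was 1.90 next to -0.01. Without day 0 replicate 2, 5 members were higher at day 4, against 11.1% of all genes called: Oas1a (log2FC 1.70 ± 0.39, adjusted p = 0.0188), Oas2 (log2FC 4.63 ± 0.81, adjusted p = 0.00532), Oas3 (log2FC 4.83 ± 0.50, adjusted p = 0.000216), Oasl2 (log2FC 6.30 ± 0.56, adjusted p = 8.41e-05) and Oasl1 (log2FC 3.12 ± 0.66, adjusted p = 0.0142). Each was higher in 3 of 3 day 4 libraries than the mean of the remaining day 0 libraries. Oasl1 was below 1 CPM at both days (-1.62, -1.37 and -0.02 at day 4) and was tested only because BM cells passed the filter, so its call adds little. Microglia (7.05 to 8.19 against 6.24 to 6.90) and neutrophil marker sums (5.06 to 5.56 against 2.34 to 5.03) were higher at day 4 than in any day 0 library. Without day 0 replicate 2, macrophage (11.98 to 12.95 against 8.74 and 10.83) and oligodendrocyte sums (5.68 to 6.26 against 4.52 and 4.74) were also higher at day 4. So were astrocyte sums (-1.76 to -1.21 against -4.34 and -2.52), and progenitor sums (3.63 to 4.38 against 5.36 and 6.59) were lower.

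The mean of the 8 members in each library gives an order of groups. In the brain set it was 5.24 ± 0.48 (SD, n = 6) in ER-Hoxb8 MLCs, 2.77 ± 0.60 (SD, n = 3) in BMD macrophages, 2.34 ± 0.56 (SD, n = 3) in ER-Hoxb8 macrophages, 2.06 ± 0.81 (SD, n = 6) in BMD MLCs and -0.45 ± 0.76 (SD, n = 9) in microglia. The first and last of these groups stood clear and the 3 between overlapped.

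The members varied together to different degrees. Each member was correlated with the mean of the other 7 over the baricitinib libraries, which share a normalization and the same dose steps, as a description. Over all 33 libraries r was 0.965 (Oas2) to 0.995 (Oas1a) for active members and 0.854 (Oas1c) to 0.944 (Oas1b) for inactive ones. Within the 17 NTC libraries the active members kept r of 0.938 (Oasl2) to 0.982 (Oas1a), and the inactive ones were at 0.618 (Oas1b), 0.413 (Oas1c) and 0.112 (Oasl1). Oasl1 exceeded 1 CPM in none of these NTC libraries, so its r there describes values near the lowest one. Within the 16 Adar1 KO libraries all 8 were between 0.944 (Oasl1) and 0.997 (Oas1a). By rank (Spearman) they were lower there, from 0.743 (Oas2), 0.751 (Oas3) and 0.826 (Oasl2) to 0.938 (Oas1c). Rank correlations were 0.736 (Oasl1) to 0.976 (Oas1a) over all 33 libraries and 0.0814 (Oasl1) to 0.982 (Oas2) within NTC. In the brain set of 27 libraries r was between 0.567 (Oas1c) and 0.95 (Oas2), and by rank between 0.558 (Oasl1) and 0.932 (Oas2).

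The genes whose pattern was most like the members' mean, among the 11144 others tested over the 33 baricitinib libraries, were Slfn8 (r = 0.993), Lgals3bp (0.992), Irf7 (0.991), Usp18 (0.99) and Xaf1 (0.984). Over the 27 brain-set libraries and 12510 genes they were H2-K1 (0.963), Irf7 (0.954), H2-K2 (0.949), Mnda (0.935) and Rtp4 (0.931). These libraries share groups and normalization, so r describes likeness only.

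Other genes that act near the OAS family were read as well. Oas1d, Oas1e, Oas1f and Oas1h did not pass the filter in any set. Abce1, a ribosome recycling factor, was lower in macrophages than progenitors of NTC (log2FC -1.66 ± 0.14, adjusted p = 8.84e-07, 2 of 2 libraries), sgRNA #1 (-1.57) and sgRNA #2 (-1.83). Pde12, which degrades oligoadenylates, rose in Adar1 KO at 10 µM from 2.67, 2.26 and 2.51 to 3.55, 3.84, 3.66 and 3.51 (log2FC 1.16 ± 0.22, adjusted p = 3.21e-05, 4 of 4 libraries) and not in NTC (log2FC -0.14 ± 0.23, adjusted p = 0.734, 2 of 3 libraries), a difference between lines that passed (log2FC 1.31 ± 0.32, adjusted p = 0.00181).

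**Figure D4:**
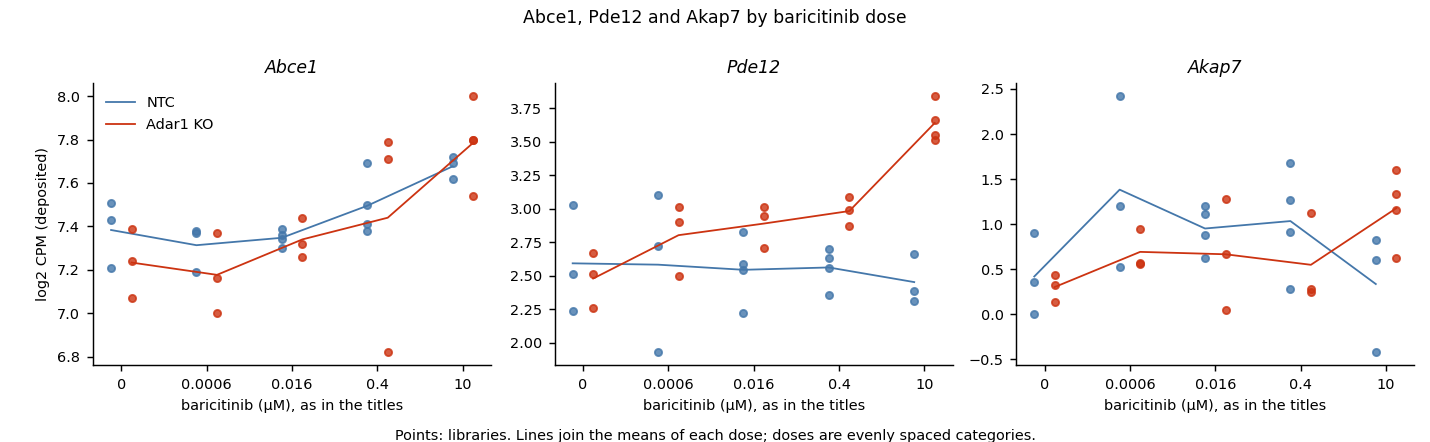
Level (log2 CPM) of Abce1, Pde12 and Akap7 against baricitinib dose (µM, evenly spaced steps) in NTC and Adar1 KO macrophages, with a point per library and a line through group means. Pde12 of Adar1 KO at 10 µM was 3.55, 3.84, 3.66 and 3.51, above its 0 µM values.

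Some single genes of a list of 9 for interferon signalling followed the direction of the members and others did not. Between Adar1 KO (sgRNA #1) and NTC macrophages, 6 of 8 tested were called, 5 higher and 1 lower, against 21.8% of all genes. In Adar1 KO at 10 over 0 µM, 7 of 9 were called, 5 lower and 2 higher, against 65.8% of all genes. With sgRNA #1 macrophages, Irf7, an interferon-induced factor, was 10.01, 10.15 and 9.44 against 4.22 and 4.28 in NTC (log2FC 5.61 ± 0.29, adjusted p = 3.05e-07, 3 of 3 libraries). Ifnar1, a chain of the receptor, was lower (log2FC -0.62 ± 0.18, adjusted p = 0.0292, 3 of 3 libraries). Ifnb1, which encodes interferon beta, did not pass the filter there, as only 2 libraries exceeded 1 CPM with the offset subtracted. It was 2.08, 1.55 and 0.09 in Adar1 KO macrophages and -3.43 and -2.28 in NTC. At 10 µM baricitinib in Adar1 KO, Irf7 went from 9.31, 8.87 and 8.69 to -0.57, -0.64, -0.25 and -0.59 (log2FC -9.47 ± 1.08, adjusted p = 1.69e-08, 4 of 4 libraries).

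**Figure D5:**
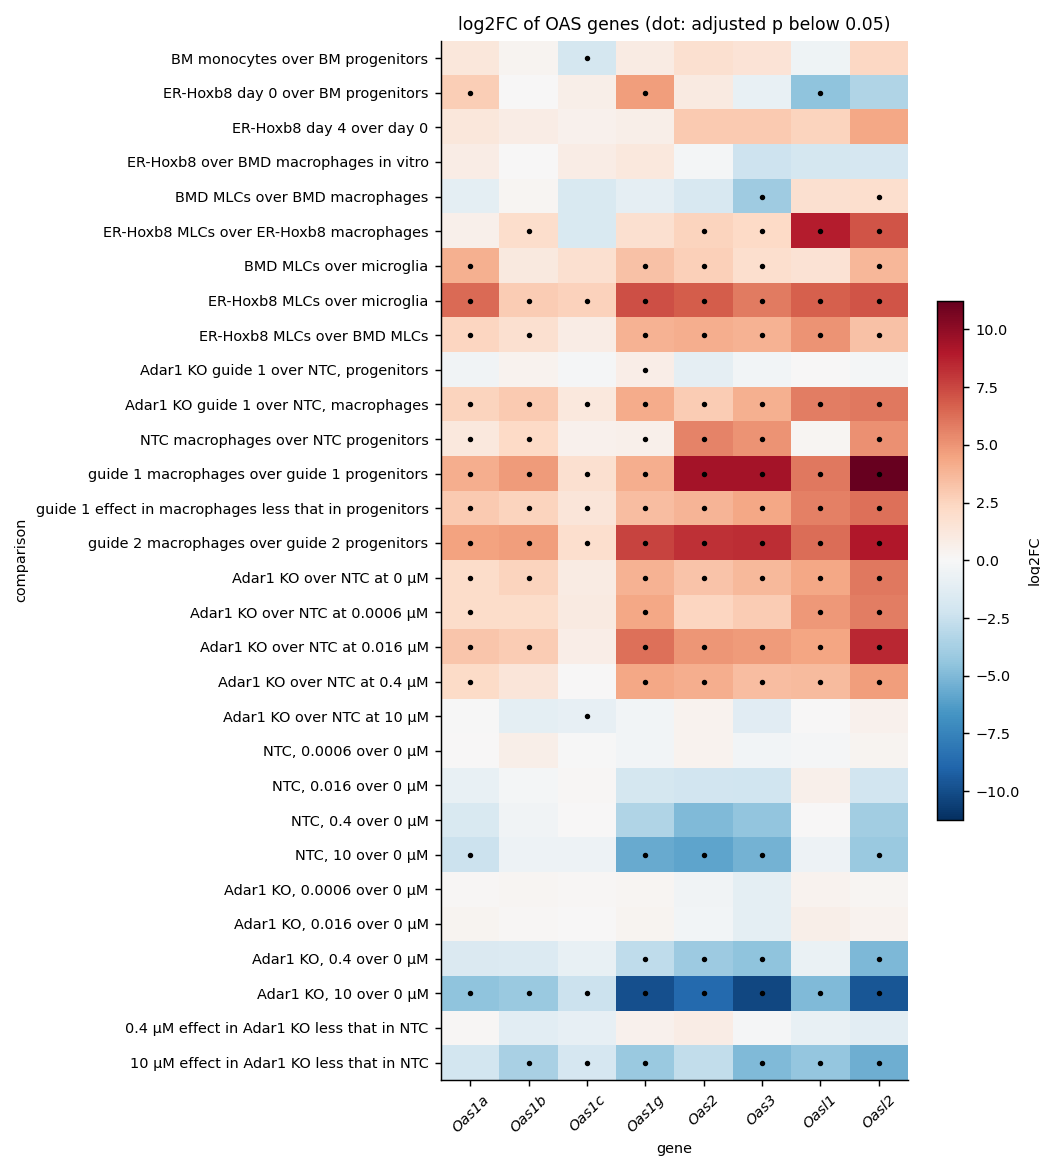
Difference (log2FC) of each OAS member in each of the 30 comparisons, blue for lower and red for higher, with a dot at an adjusted p under 0.05. All 8 members were called higher in Adar1 KO macrophages (sgRNA #1) and in ER-Hoxb8 MLCs over microglia, and all 8 lower in Adar1 KO at 10 µM baricitinib. In each of these comparisons, some members exceeded 1 CPM in no library of the lower group, so their calls add little.

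Across comparisons the members ranked differently. Oasl2 had the largest difference of the 8 between Adar1 KO and NTC macrophages in both experiments without inhibitor (5.91 and 5.89), and Oas1c the smallest (1.22 and 0.91). The size for Oasl1 rests on NTC libraries close to the lowest value in the first of these, and in part on an NTC library at a count of 0 in the second. The order of Oasl1 and Oasl2 in the first therefore depends on the lowest value. Oas1c also had the smallest fall at 10 µM in Adar1 KO (-2.42), where the order of the larger falls is not determined. Differences among members were not tested against each other.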

How the data were processed

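The deposited log2 CPM values were used as the authors computed them with kallisto 0.46.0 on GRCm39 and edgeR. Reads were not realigned. The 8 members, the further genes named and the marker lists (macrophage, microglia, progenitor, monocyte, neutrophil, neuron, oligodendrocyte, astrocyte, endothelium, border macrophage) were chosen with earlier results on the series known. A further marker list of 3 genes was summed and is not described here. Its sums also separated some groups without overlap, among them BM monocytes and BM progenitors. In the brain set they were highest in ER-Hoxb8 MLC replicates 3 and 6. Named genes are those with an entry in the gene column. The filter kept a gene with CPM above 1, after the offset for a count of 0 is subtracted, in at least 3 libraries of its set, or 6 in the brain set. Each set was fitted with limma (trend), and p-values were adjusted by the Benjamini-Hochberg method. Replicate numbers come from the sample labels, and a check found same-numbered libraries alike in 2 of 27 comparisons, so the fits are unpaired. The 2 were ER-Hoxb8 day 4 over day 0 (r of 0.226 to 0.427) and Adar1 KO over NTC progenitors (0.158 to 0.349). With replicate number as a block, the count of called members held in the former, and in the latter the call of Oas1g was lost. Alternatives were fixed before the data were seen, except 2 added afterwards. If the offset in each set was 2 counts, the deposited values imply mean depths of 40.6, 24.5, 21.5, 17.1, 23.6 and 13.7 M reads (time course, brain set, sgRNA #1, NTC macrophage replicate 2, sgRNA #2, baricitinib). All columns were used, with 0 left out. Versions were R 4.3.3, limma 3.58.1, Python 3.11.15, numpy 2.4.6 and matplotlib 3.10.9.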

Additional observations from a re-analysis of the deposited data

Results flagged for a closer look

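Oasl2 in microglia replicate 8 was -1.16, against 1.29 to 2.41 in the other 8 libraries, a gap that Dixon's test marks as an outlier. In Adar1 KO macrophages at 10 µM, Oas1g in replicate 3 (-1.58) and Oas2 in replicate 4 (-1.13) were marked because the other 3 libraries of each were at a count of 0. These are 3 of 56 values tested so, and chance alone marks about 1 in 20, or 2.8 of 56.

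The effect of Adar sgRNA #1 was larger in macrophages than in progenitors by a test of the difference for Oas1a (2.93), Oas1g (3.49), Oas2 (3.82), Oas3 (4.33), Oasl2 (6.16), Oas1b (2.54), Oas1c (1.34) and Oasl1 (5.68). The effect of 10 µM baricitinib was larger in Adar1 KO than in NTC macrophages, by a test of the difference, for Oas1g (-4.18), Oas3 (-4.93), Oasl2 (-5.45), Oas1b (-3.64), Oas1c (-1.87) and Oasl1 (-4.35). Oasl1 passed the filter through Adar1 KO macrophages alone in both sets and was below 1 CPM in all NTC libraries, so its part in both was fixed beforehand. In the first test Oas1b, Oas2, Oas3 and Oasl2 exceeded 1 CPM in no progenitor library, so their calls add little. In the second, Oas1g, Oas3 and Oasl2 exceeded it in no 10 µM library, so theirs add little too.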

How the results depend on the processing

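Each alternative gave a count of called members per comparison, and counts within 1.5 times the reported one are given as numbers of comparisons. No called log2FC of a member changed sign: of 1891 repeated tests of called members, 1769 still passed and 122 did not. Members that were not called are not in these counts.

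With log2(CPM + 1), 26 of 30 counts held, and the others were 2 (monocytes over BM progenitors), 4 (BMD MLCs over BMD macrophages), 0 (Adar1 KO over NTC progenitors) and 0 (Adar1 KO over NTC at 10 µM). With no filter, 28 of 30 held, and the last 2 of these comparisons gave 0. Asking also for a log2FC of at least 2 kept 27 of 30, with 1 for BMD MLCs over BMD macrophages and 0 for those same 2. With the compared groups fitted alone, 19 of 28 held. The others were 4 (monocytes over BM progenitors), 4 (BMD MLCs over BMD macrophages), 0 (Adar1 KO over NTC progenitors), 2 (NTC macrophages over progenitors), 8 (Adar1 KO over NTC at 0.0006 µM), 0 (at 0.4 µM), 2 (NTC at 0.016 over 0 µM), 5 (NTC at 0.4 µM) and 0 (Adar1 KO at 0.4 over 0 µM). Some members then failed the filter and were not tested, among them Oas1b, Oas2, Oas3, Oasl1 and Oasl2 in Adar1 KO over NTC progenitors and in NTC macrophages over progenitors, and Oas2, Oasl1 and Oasl2 at 0.4 µM between lines.

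With library weights, 20 of 30 held. The others were 4 (monocytes over BM progenitors), 2 (ER-Hoxb8 over BMD macrophages), 6 (BMD MLCs over BMD macrophages), 8 (BMD MLCs over microglia), 8 (Adar1 KO over NTC at 0.0006 µM), 2 (at 10 µM), 2 (NTC at 0.016 over 0 µM), 5 (NTC at 0.4 µM), 8 (Adar1 KO at 0.4 over 0 µM) and 6 (0.4 µM effect between lines). A replicate block moved 1 of 30, to 0 for Adar1 KO over NTC progenitors. Equal library medians moved 2 of 30, that comparison and Adar1 KO over NTC at 10 µM, both to 0. GFPHox libraries alone moved 1 of 3, to 3 for ER-Hoxb8 MLCs over ER-Hoxb8 macrophages. WTHox libraries alone (3 comparisons) and microglia without the 2 libraries of the other series (2 comparisons) moved none.

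The fit omitting Adar1 KO at 0.4 µM replicate 2 moved 7 of 15: 8 for Adar1 KO over NTC at 0.0006 µM, 2 at 0.4 µM, 3 at 10 µM, 2 for NTC at 0.016 over 0 µM, 5 for NTC at 0.4 µM, 8 for Adar1 KO at 0.4 over 0 µM and 7 for the 0.4 µM effect between lines. The fit omitting ER-Hoxb8 day 0 replicate 2 moved 3 of 3: 4 for monocytes over BM progenitors, 5 for day 0 over BM progenitors and 5 for day 4 over day 0.

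Single libraries were then removed in turn, and where that left 1 NTC macrophage library, it is assumed to vary like the other groups. The counts ran from 1 to 1 (monocytes over BM progenitors), 3 to 5 (day 0 over BM progenitors), 0 to 5 (day 4 over day 0), 0 to 0 (ER-Hoxb8 over BMD macrophages), 1 to 3 (BMD MLCs over BMD macrophages), 3 to 5 (ER-Hoxb8 MLCs over ER-Hoxb8 macrophages), 5 to 8 (BMD MLCs over microglia), 8 to 8 (ER-Hoxb8 MLCs over microglia) and 7 to 7 (between MLCs). With sgRNA #1 the ranges were 0 to 0 (progenitors), 7 to 8 (macrophages), 5 to 6 (NTC macrophages over progenitors), 7 to 8 (Adar1 KO macrophages over progenitors) and 6 to 8 (difference of effects), and with sgRNA #2 8 to 8. Adar1 KO over NTC gave 3 to 6, 3 to 5, 7 to 7, 2 to 7 and 0 to 1 at 0, 0.0006, 0.016, 0.4 and 10 µM. Doses over 0 µM gave 0 to 0, 0 to 0, 0 to 0 and 3 to 4 in NTC and 0 to 0, 0 to 0, 0 to 8 and 8 to 8 in Adar1 KO. The effects between lines gave 0 to 7 at 0.4 µM and 4 to 6 at 10 µM.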
